A study of Rattus norvegicus with 6 samples.

Results

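The intergenic circRNAs of mouse islets are the 323 entries of the authors' circRNA annotation whose class is given as intergenic region, out of 15925 circRNAs in all (2.03%). The other entries are 14675 of the exon class and 927 of the intron class. Members were taken by this class alone, without regard to abundance, and all 323 are described. The authors built this annotation from mouse islet RNA-sequencing reads that another study had produced, and the series also holds 6 libraries of rat islet cells transfected with a control or a ci-Ins2 gapmeR, which were not used here. For each circRNA the table gives 1 mean of DESeq2-normalized back-splice junction reads over 2 samples named ND there, and this mean is the abundance given below. The table's columns of single samples belong to that other study and were not used here. The mean is therefore given without an SD, no difference between circRNAs or classes was tested, and values set side by side are descriptions.

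Circular RNAs arise when the splicing machinery joins the downstream end of an exon to the upstream end of the same or an earlier exon, a reaction known as back-splicing. The product is a closed ring without free ends, which makes it resistant to exonucleases and more stable than most linear transcripts. Most known circRNAs contain exons of protein-coding genes, while some keep intron sequence, as lariats that escape debranching do. A circRNA counts as intergenic when the gene annotation in use assigns no host gene to it, so the class can hold products of transcripts or exons that the annotation lacks. In the table, no intergenic circRNA has a host gene name. All coordinates are those of the table. The study names mm10 as a mouse reference without tying it to this table, so the build behind these coordinates is not stated, nor is whether starts count from 0 or 1. The span is the genomic distance between the junction ends, counted as End minus Start plus 1, and not the length of the RNA, since introns inside it may be spliced out.

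A single circRNA carried 41.6% of the summed mean of the class. This was circ_00004 on the minus strand of chromosome 17 (chr17:81647808-81649638), with a mean of 1430 normalized junction reads and a span of 1831 bases, which ranked 7 of all circRNAs. Its circBase ID is mmu_circ_0000823, and it is also listed in circAtlas and CIRCpedia. It overlapped no other circRNA of the table, and the nearest on its strand lay 137 kb away and belongs to Slc8a1, which encodes a plasma membrane sodium-calcium exchanger. This is a distance between circRNAs and not to the gene. Whether circ_00004 lies within Slc8a1 was not examined, since no mouse gene annotation was used. The next member, circ_00192 on the minus strand of chromosome 9 (chr9:68537915-68540385), had a mean of 141, so circ_00004 stood 10.1-fold above it. It was followed by circ_00216 (chr14:7739458-7751583, minus strand) with a mean of 128, circ_00263 (chrX:9773351-9786596, plus strand) with 115 and circ_00298 (chr7:61925310-61931493, minus strand) with 85.4. These members had spans from 1.83 to 13.2 kb, and together the 5 held 55.3% of the summed mean of the class. The 5 highest of the exon class held 4.83% and those of the intron class 16.6%. The intergenic, exon and intron classes hold 323, 14675 and 927 circRNAs, and 5 circRNAs are a larger part of a small class. These shares therefore do not compare how concentrated the classes are.

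The remaining circRNAs among the 10 highest were circ_00896 (chr9:46510518-46533968, plus strand) with a mean of 41.2, circ_00851 (chrX:151198021-151211030, plus strand) with 39.7, circ_01330 (chr7:37959254-37982948, minus strand) with 38.6, circ_01495 (chr7:62019948-62039082, minus strand) with 31.9 and circ_01160 (chr9:68502247-68540385, minus strand) with 29.4. Of the 10, 9 lay in loci with other intergenic circRNAs and circ_00004 alone did not. All 10 have a circAtlas ID and 6 a circBase ID.

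**Figure D1:**
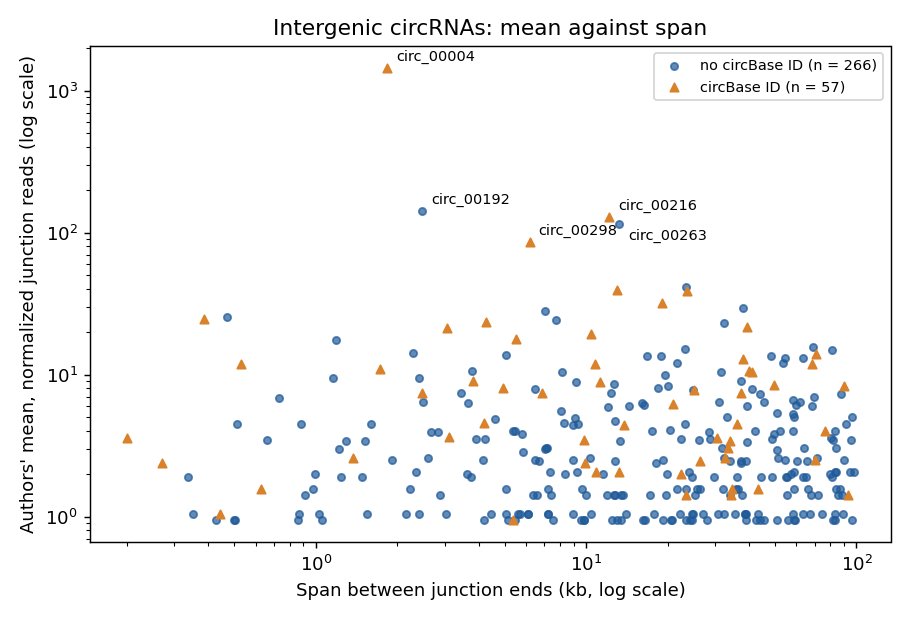
Authors' mean of normalized junction reads against the span between junction ends for the 323 intergenic circRNAs, both on log scales; triangles are the 57 members with a circBase ID and circles the 266 without one. circ_00004 at 1430 stands apart from all other members, the next of which is circ_00192 at 141, and members of every span reach down to the lowest values.

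Most members were rare. The median of the class was 2.51 normalized junction reads (quartiles 1.43 and 6.0), beside 3.03 for the exon class and 1.99 for the intron class. A mean of at least 10 was given for 45 members (13.9%), beside 19.4% of the exon class and 10.7% of the intron class. The authors required 2 junction reads in a sample, and 73 members (22.6%) sat at the 2 lowest values of the table, 0.952 and 1.04, with 19.4% of the exon class and 28.7% of the intron class at the same values. Such means rest on very few reads, and their order among themselves carries no information. The number in a name is not the rank used here, since names in the table run to 28656 and therefore past its 15925 entries.

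The median span of the intergenic circRNAs was 19.7 kb (quartiles 6.09 and 43.6 kb), with 14.6 kb for the intron class and 9.53 kb for the exon class. Part of the gap to the intron class lay in crowded loci. With each locus of overlapping circRNAs counted once in every class, by its most abundant circRNA, the medians were 12.1, 11.6 and 5.97 kb, so that the intergenic and intron classes were close. Spans over 50 kb were found for 71 members (22.0%), beside 5.18% of the exon class and 12.9% of the intron class. With each locus counted once, these shares were 16.4% of the intergenic, 1.71% of the exon and 10.1% of the intron class. No circRNA of any class had a span over 100 kb. The longest were 98.0 kb in the intergenic, 99.6 kb in the exon and 99.5 kb in the intron class. Whether the calling set a limit on length is not stated, so the upper tails of the spans may be cut. The longest members were circ_13803 (chr3:94622050-94720088) at 98.0 kb, circ_23690 (chr5:109751594-109847819) at 96.2 kb and circ_06638 (chr4:86980021-87076157) at 96.1 kb, with means of 2.08, 0.952 and 5.07. The shortest were circ_07713 (chr9:63093426-63093625) at 200 bases, circ_08044 (chrX:105175989-105176257) at 269 bases and circ_16293 (chr8:95821422-95821757) at 336 bases, with means of 3.55, 2.38 and 1.90. Long and short members alike had low means, and over the 323 members the rank correlation of span and mean was −0.03, where members of a locus share junction ends and many low means are tied. The highest values were nevertheless not found among the longest members, as no member with a span of 50 kb or more exceeded a mean of 15.6.

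**Figure D2:**
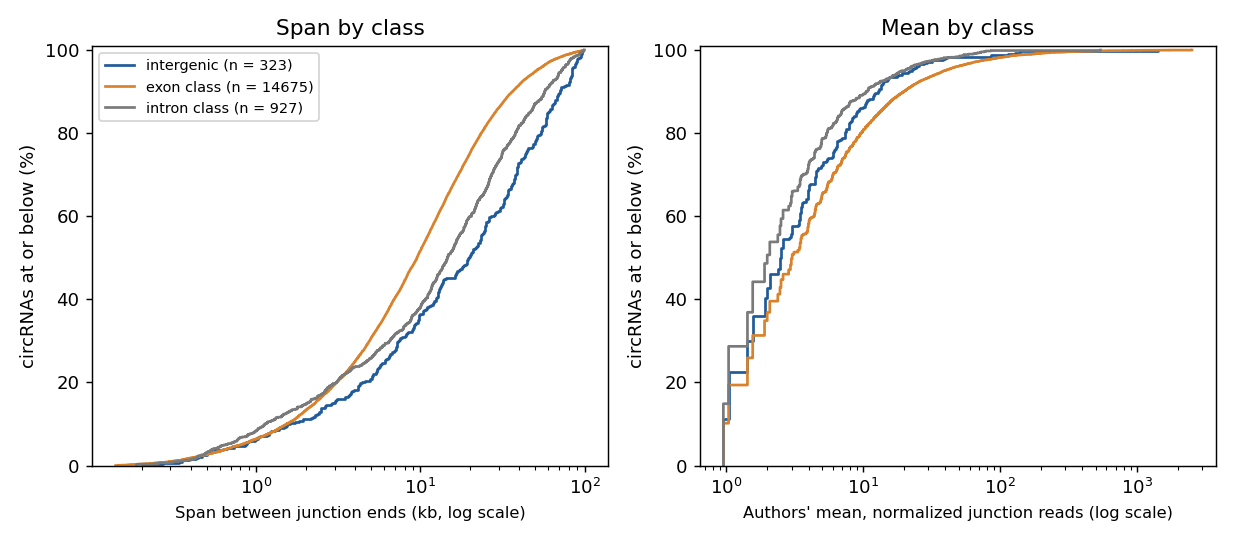
Cumulative share of circRNAs against span (left, kb, log scale) and against the authors' mean (right, normalized junction reads, log scale) for the intergenic (n = 323), exon (n = 14675) and intron (n = 927) classes. The intergenic line for span lies to the right, with a median of 19.7 kb, and that for the mean runs between the lines of the other classes, with a median of 2.51.

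Intergenic circRNAs were listed on all 21 chromosomes of the table, on the plus strand in 171 cases and on the minus strand in 152. Chromosomes 9 and X had 41 each and chromosome 7 had 31. Together these made up 35.0% of the class, beside 13.8% of the exon class and 10.9% of the intron class. On chromosome X, 8.82% of all listed circRNAs were intergenic, and on chromosome 16 only 0.387%, where 2 of 517 were. A large part of this unevenness lay in single loci, as the 3 largest held 18 members on chromosome 9, 17 on chromosome 7 and 14 on chromosome X. When overlapping circRNAs of a strand were counted as 1 locus, the share of chromosomes 7, 9 and X was 20.5% of intergenic loci. It was 14.9% of exon-class loci and 10.2% of intron-class loci. These chromosomes were picked for having the most intergenic circRNAs, which by itself favours a higher share in this class. By loci, chromosome 7 had 10, fewer than the 12 of chromosome 17. The Y chromosome had 1 member, circ_04154 (chrY:90739141-90793417), with a mean of 13.1.

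**Figure D3:**
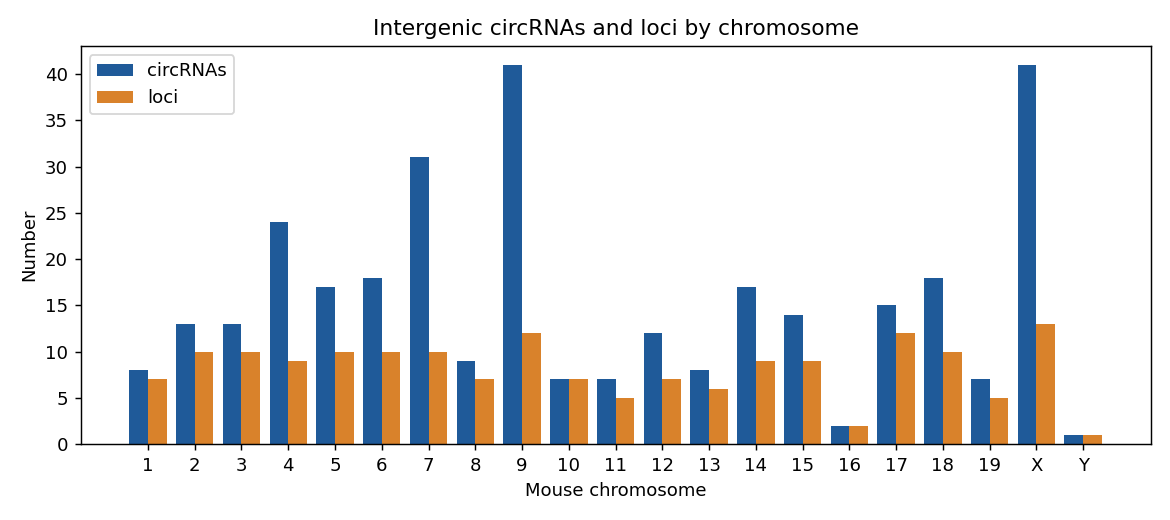
Number of intergenic circRNAs (left bars) and of loci of overlapping circRNAs on the same strand (right bars) on each mouse chromosome. Chromosomes 9 and X have 41 circRNAs each but 12 and 13 loci, and chromosome 7 has 31 circRNAs in 10 loci.

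The members formed 171 loci, where intervals that overlap by at least 1 base on a strand were joined. Of these, 122 held 1 member, 23 held 2, 11 held 3 and 15 held 4 or more. The 15 large loci held 122 members (37.8%). Loci of 2 or more held 62.2% of members, beside 79.8% of the exon class and 47.5% of the intron class, each joined within its own class. Members that shared a locus had a median mean of 3.03 and a median span of 26.3 kb, while those that stood alone had 1.90 and 9.83 kb. A wider interval overlaps others more readily, so the spans of members that share a locus are in part set by how loci were formed.

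The largest locus, on the plus strand of chromosome 9 (chr9:46450284-46674504), held 18 circRNAs with 12 starts and 5 ends over 224 kb. Its most abundant member was circ_00896 with a mean of 41.2, followed by circ_02829 (15.6), circ_02553 (13.5), circ_02783 (13.5) and circ_02738 (13.1), and the lowest were circ_13415 and circ_18452 at 1.56 each. One end recurred, as 6 circRNAs with spans from 6.49 to 83.7 kb had different starts but all ended at position 46533968. The same position ends circ_00362 of Gm31432, a long non-coding RNA gene, which has a mean of 93.0 and is of the exon class. Every member of this locus overlapped a circRNA of Gm31432, Gm48945 or Gm31557, all annotated as lncRNA genes, and 14 shared an exact end with one. Only circ_07405 of the 18 has a circBase ID.

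The second locus, on the minus strand of chromosome 7 (chr7:61945130-62070616), held 17 circRNAs with 7 starts and 7 ends over 125 kb. Here circ_01495 had the highest mean at 31.9, followed by circ_03897 (10.5) and circ_03898 (10.4), and circ_22539 the lowest at 1.04. On the minus strand the start coordinate is the downstream end of the RNA, and 5 members shared the one at 62019948 while joining it to different upstream ends. Their means were 31.9 for the shortest, circ_01495, and 3.51 to 7.36 for the others. No member of this locus overlapped a circRNA that the table assigns to a gene. The third locus, on the plus strand of chromosome X (chrX:9773351-9995171), held 14 circRNAs over 222 kb. It contained circ_00263 at 115, circ_01571 at 22.9, circ_02509 at 15.2 and circ_02014 at 14.8, and its lowest member was circ_18215 at 1.43. Of its upstream members, 5 ended together at 9805724, but circ_00263 ended at 9786596. Among the downstream members, 3 shared an end with circRNAs of Sytl5, whose product, a synaptotagmin-like protein, binds Rab27. None of the 14 has a circBase ID.

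**Figure D4:**
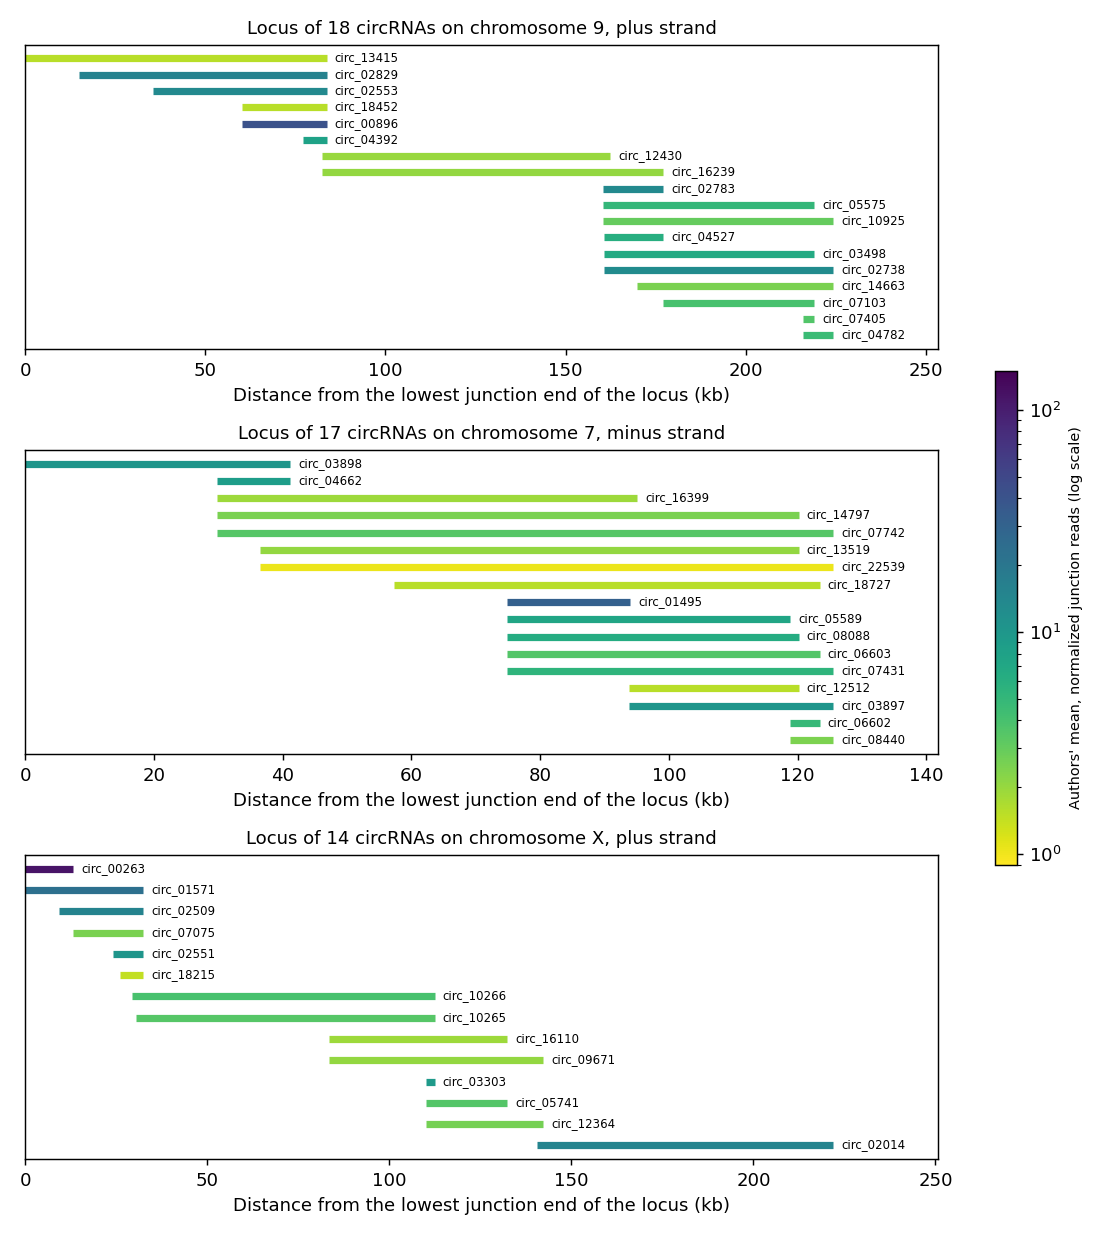
Intergenic circRNAs of the 3 largest loci, each drawn as a line from its lower to its higher junction end against the distance from the lowest junction end of the locus (kb) and coloured by the authors' mean (log scale). Lines that stop at the same distance share a junction end, as the 6 circRNAs at the top of the chromosome 9 locus do, and the darkest line is circ_00263 with a mean of 115.

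In several smaller loci 1 circRNA held most of the junction reads. At the locus of 8 on the minus strand of chromosome 9 (chr9:68501833-68547076), circ_00192 held 72.7% of the summed mean of 194, and 5 members shared its upstream end at 68540385. At the locus of 7 on the minus strand of chromosome 14 (chr14:7721820-7751583), circ_00216 held 63.0% of a summed mean of 204, and circ_01312, circ_01083 and circ_01423 had means of 27.9, 24.2 and 17.9. By contrast, the 8 members on the plus strand of chromosome 18 (chr18:26070934-26212381) were more even, with a highest mean of 11.9 for circ_02864, 11.0 for circ_02180 and 10.6 for circ_03761. Of those 8, 4 have a circBase ID. The other large loci had summed means between 6.27 and 47.1, in which circ_00851 on chromosome X held 84.4% of the latter.

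Reuse of junction ends was common. An exact start or end on the same strand was shared with another intergenic circRNA by 192 members (59.4%) and with a circRNA of the exon or intron class by 82 (25.4%). With both counted, 222 members (68.7%) shared an end with some circRNA of the table, beside 72.0% of the exon class and 71.2% of the intron class. A further count kept only circRNAs with a mean of at least 10 in every class. There, 15.6% of members shared an end with the exon or intron class. Partners below 10 were left out as well, which lowers the share by itself. Whether abundant members share such ends less often is not shown by this count. In the direction of transcription, the 323 members used 258 upstream and 233 downstream ends, and single ends were used by up to 5 and up to 6 members. In 8 loci a start of one member lay within 300 bases before an end of another, which bounds 10 short segments of 49 to 205 bases. Examples are 87 bases at chr7:62063932-62064018 and 96 bases at chr7:62038987-62039082 in the second locus, and 100 bases at chr4:89399773-89399872, where the start was used by 2 circRNAs and the end by 3. This limit was chosen after the values were seen.

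The 82 circRNAs that shared an end with a circRNA of a gene involved 51 genes, 40 of them protein-coding and 11 of other biotypes. In every case the partner with the same end included a circRNA of the exon class. For 74 members this was 1 gene. Of these, 41 started at an upstream end that the gene's own circRNAs use and ran past the downstream limit of those circRNAs, and 33 ended at a downstream end of the gene's circRNAs and began before their upstream limit. They reached beyond the gene's circRNAs by a median of 16.5 kb, from 0.147 kb for circ_15376 at Asah2, the gene of neutral ceramidase, up to 93.4 kb. How the authors set the class of a circRNA with 1 end in a gene is not stated, and that choice may fix this pattern in part.

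Among protein-coding genes, Uri1, which encodes a prefoldin-like chaperone, shared ends with 3 intergenic circRNAs. These were circ_01330, circ_01634 and circ_08444 with means of 38.6, 19.3 and 2.47. All 3 had the same downstream end at 37959254, which is 2.13 kb past the circRNAs assigned to Uri1, and the highest mean among those was 5.50. The first 2 thus lay above every circRNA listed for the gene itself. A similar order was seen at Wnk3, a kinase gene whose product regulates cation-chloride cotransporters. Here circ_00851 at 39.7 began 9.58 kb before the circRNAs assigned to Wnk3, which reached a mean of 4.03, while circ_07703 with the same start had 2.47.

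The opposite order was more frequent, as 66 of the 82 members had a lower mean than the most abundant circRNA that shares their end and 16 a higher one. The median was 3.03 for the members and 11.1 for these partners. Taking the most abundant partner favours this order. A partner can also stand for several members, as circ_00362 of Gm31432 does for 8, so the 82 comparisons are not separate. At Ift81, which encodes a subunit of the intraflagellar transport complex, circ_02849, circ_04677 and circ_23625 had means of 14.0, 4.07 and 1.04. Their most abundant partners had 44.2, 18.7 and 1.56, and the gene's 18 own circRNAs reached 81.4. The 3 members ended together 10.8 kb past the gene's own circRNAs. At Slc24a2, a potassium-dependent sodium-calcium exchanger gene, circ_04812, circ_06638 and circ_05284 had means of 6.97, 5.07 and 4.03. Their most abundant partners had 17.5, 32.0 and 37.7, the last being the highest of the gene's own circRNAs. These members ended 16.5 kb past the gene's own circRNAs. At Sytl5, circ_02014 at 14.8 shared the upstream end of circ_00248 at 97.1 and passed the gene's circRNAs by 0.639 kb. The order was mixed at the cap-binding protein gene Eif4e3, which shared ends with 6 members, 4 of which shared the same end with Gm20696 as well. The highest, circ_03085 at 12.9 and circ_04067 at 7.40, lay above circ_04170 of Eif4e3 at 5.93. Both lay below circ_00115 of Gm20696 at 196. The other members lay below their most abundant Eif4e3 partner. A member could also lie far below its partner, as circ_02033 at 8.32 did beside circ_00022 of the lncRNA gene A230057D06Rik at 817.

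**Figure D5:**
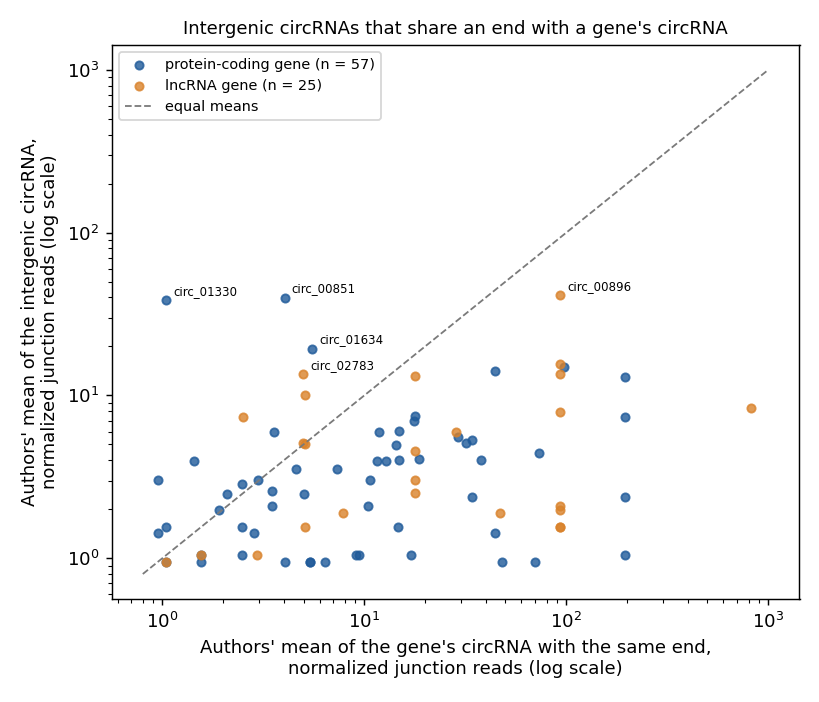
Authors' mean of each of the 82 intergenic circRNAs that share an exact end with a circRNA of a gene (vertical axis) against the highest mean among those partners (horizontal axis), both in normalized junction reads on log scales; colours give the biotype of the partner's gene. The dashed line marks equal means, with 66 points below it and 16 above, among them circ_01330 and circ_00851.

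In 4 cases the upstream end was shared with 1 gene and the downstream end with another. Thus circ_10925 (mean 3.03) joined ends of Gm48945 and Gm31557, and circ_12430 (1.99) ends of Gm31432 and Gm48945, both in the chromosome 9 locus. circ_12137 (0.952) ran from an upstream end of Gm6999 to a downstream end of Olfm4, and circ_24316 (0.952) from Slc33a1, the gene of an acetyl-CoA transporter, to Plch1, a phospholipase C gene. The last pair of values is the lowest that the table holds.

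In all, 114 members (35.3%) overlapped a circRNA of the exon or intron class on their own strand and 209 did not. With circRNAs of every class limited to a mean of at least 10, this share was 20.0%. Exon- and intron-class circRNAs below 10 were left out as well, which lowers the share by itself. Members with such an overlap had a median span of 32.9 kb and a median mean of 3.03, and those without it 10.8 kb and 2.47. Of the 209, 10 lay within 10 kb of the nearest exon- or intron-class circRNA on their strand, 74 within 100 kb and 36 more than 1 Mb away. Among these distant members was circ_00192, whose nearest neighbour of this kind lay 1140 kb away. Of the 5 most abundant members, circ_00298 overlapped circRNAs of A230057D06Rik and the other 4 overlapped none of a gene.

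The antisense column named a gene on the opposite strand for 13 members (4.02%), with 1.76% in the exon class and 4.10% in the intron class. With each locus counted once, as for the spans, the shares were 7.02, 1.99 and 5.11%. All 13 had spans of at least 10 kb, with a median of 44.5 kb. They named 14 genes, each once. By mean the first were circ_04154 opposite G530011O06Rik (13.1), circ_04719 opposite Gm6034 (7.83), circ_04262 opposite Wnk3 (5.97), circ_08110 opposite Nat8f7 (3.55) and circ_10262 opposite 4933412E12Rik (2.60). Their median was 1.90. Of the 14 genes, 4 had circRNAs of their own in the table. They were Wnk3, Kansl1l, Ppp2r3a, which encodes a regulatory subunit of protein phosphatase 2A, and Aqr, the gene of a spliceosomal helicase. Kansl1l had the highest of these at 132, while circ_14089 opposite it had 1.04. Only circ_04262 and circ_14089 overlapped a circRNA of the opposite strand. circ_04262 (chrX:151265723-151334013) shares an end with the lncRNA gene A230072E10Rik, so the Wnk3 region has intergenic circRNAs on both strands.

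A circBase ID was given for 57 members (17.6%, exact Clopper-Pearson 95% interval 13.6 to 22.3%, which covers counting error only and treats members of a locus as separate). The share was 39.0% in the exon class and 19.7% in the intron class. Members with an ID had a median mean of 7.40 and those without one 2.08, and in the exon class these medians were 6.93 and 2.08. Among the 45 members with a mean of at least 10 the share was 44.4%, and at that level it was 78.5% in the exon class and 54.5% in the intron class. The most abundant members without a circBase ID were circ_00192 (141), circ_00263 (115), circ_00896 (41.2), circ_01160 (29.4) and circ_01312 (27.9). Among the 71 members with spans of 50 kb or more, 6 had an ID (8.45%), beside 38.4% of the exon class at such spans.

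Other databases covered the class differently. A circAtlas ID was given for 238 members (73.7%), beside 95.3% of the exon class and 84.7% of the intron class. Of the 238, 237 are named intergenic there as well. The exception was circ_10417 (chr5:53896990-53904121), which circAtlas names for Tbc1d19 and which also shares an end with a circRNA of that gene. CIRCpedia listed 3 members (0.929%), circ_00004, circ_04701 and circ_04005, beside 0.971% of the intron class and 77.1% of the exon class. No ID of any of these databases was given for 85 members (26.3%), beside 4.42% of the exon class and 15.1% of the intron class. Those 85 had a median mean of 1.56, and the highest was circ_01683 (chr12:11516670-11517857) at 17.7.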

How the data were processed

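To annotate circRNAs, the authors searched mouse islet reads of another study with CIRI2 and find_circ. circRNAs found by both were kept, and 2 or more back-splice spanning reads were required in a sample. The versions of these tools and the build of the coordinates are not given in the sources used here. The deposited mean, used as the authors' value, averages a signal that the authors had normalized with DESeq2, junction reads per circRNA, over 2 samples. The 6 columns of single samples, which belong to that study, and the 6 columns of the authors' own DESeq2 comparison were not used, nor were the deposited tables of the rat libraries. The depth behind the means was therefore not assessed.

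Intervals, shared ends and overlaps were computed in Python 3.11.15 with pandas 2.3.3 and scipy 1.17.1, and plots were drawn with matplotlib 3.10.9. Loci, shared ends and overlaps were tested on simulated data. Exact ends on the same strand and overlaps of at least 1 base were counted. An upstream or downstream limit of a gene is that of the circRNAs the table assigns to it, since no mouse gene annotation was used.

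circRNAs were named by rule: the 10 with the highest mean, members of loci of 4 or more, the 3 longest and 3 shortest, the 5 highest with an antisense gene, without a circBase ID or with an end shared with the exon class, and the antisense genes. Others were chosen after their values were seen. The members, rules and alternatives were chosen with earlier results of these data known. The alternatives were minimum means of 5 and 10, each locus counted once, the largest locus left out, other rules for loci and ends, and a limit of 100 kb on the span. For shared ends and overlaps the minimum means applied to the circRNAs of every class.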

Additional observations from a re-analysis of the deposited data

How the results depend on the processing

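Of 30 alternatives, 20 left the share within its exact 95% interval or the count or median within 1.5 times. With a mean of at least 5 the share on chromosomes 7, 9 and X was 47.8%, the share with a circBase ID 33.3% and the number of loci 53. Only 90 members were left there, which lowers the number of loci by itself. With a mean of at least 10, 44.4% were on these chromosomes and 44.4% had a circBase ID. With the exon and intron classes also cut at 10, 15.6% shared an end with a circRNA of a gene and 20.0% overlapped one. Fewer partners lower these shares by themselves, so neither value isolates the effect of the minimum on the members. With each locus counted once by its most abundant member, 20.5% were on these chromosomes, the median span was 12.1 kb and 7.02% had an antisense gene. The limit of 100 kb left out no circRNA, so the alternatives with this limit could not differ, and they count among the 20. Splice signals at the junction ends were not run, because no genome of the files' build was used. No paired analysis was possible because the columns of single samples in the annotation belong to another study and were not used, and no result comes from a test. For the same reason no replicate was left out. Differences between single means, above all among the lowest, were therefore not set against an error. Counting each locus of the exon and intron classes once was added after seeing the data.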
